A study of Danio rerio with 12 samples.

Results

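The genes described here encode the enzymes of glycolysis and the lactate dehydrogenases of the zebrafish (*Danio rerio*). They were the rows whose zebrafish gene symbol was one of 34 listed names, and all 34 were found among the 32520 genes of the count files. The question was how the muscle and the ubiquitous isoforms of each step behaved under heat and under stress metabolites. Whole embryos of the AB line, a laboratory wild type, were sampled at 1 day post fertilization (dpf) after 24 h of individual exposure in darkness, from the blastula on. TS + SM embryos received 19 heat cycles between 27 and 32°C in stress medium, which had held heated embryos on the previous day. TS embryos received the same heat cycles in fresh medium, SM embryos stayed at 27°C in stress medium, and C embryos stayed at 27°C in fresh medium. Each of the 4 treatments was sequenced as 3 libraries, and each library came from a pool of 20 embryos. The study describes these as biological replicates, so *P* values measure the spread between pools.

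Glycolysis turns glucose into pyruvate in the cytosol and yields ATP and NADH without oxygen. Lactate dehydrogenase reduces pyruvate to lactate and so returns NAD+ to the pathway. Most steps are served by several genes, of which some are used in nearly all tissues and others mainly in fast muscle, liver, brain or heart. Fish carry further copies from their ancestral genome duplication. Fast skeletal muscle, which forms in the trunk of the embryo during somitogenesis, is among the most glycolytic tissues. The form of each gene (muscle, ubiquitous, liver and so on) is here that of its mammalian counterpart and was not derived from these embryos. Pyruvate kinase M, aldolase A and hexokinase 2 were placed with the muscle forms, although mammals also use them elsewhere. Where the name table gave a pair of rows the same symbol without a letter, they are called copy 1 and copy 2 in the order of their Ensembl identifiers. This was so for *pfkl*, *pfkm*, *pfkp*, *aldoa*, *aldoc* and *tpi1*.

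The 12 libraries held 18764434 to 60239167 gene counts, with a median of 24659757.5. Pools of the same treatment differed by 4.49 to 165 times the variance of counting noise (chi-square over its degrees of freedom). Over all genes the spread between pools was thus wider than counting noise. Of the 32520 genes, 18688 passed the filter on low counts. The members took 0.381% to 0.423% of the gene counts in TS + SM libraries and 0.371% to 0.583% in TS, against 0.258% to 0.317% in SM and 0.313% to 0.355% in C. The lowest heated library was thus above the highest library at 27°C. Levels are given as normalized counts, that is, counts scaled to the mean effective library size. They are not corrected for gene length and are therefore compared between libraries and not between genes.

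Under heat, 8 of the 33 members tested rose and none fell, when the heat effect was averaged over fresh and stress medium. They were *gpia*, *gapdhs*, *pgk1*, *pgam2*, *eno1a*, *eno3*, *pkmb* and *ldha*, and their fold changes ran from 1.70 for *pgk1* to 2.40 for *pkmb*. These genes serve the isomerization of glucose-6-phosphate, every step of the lower pathway from glyceraldehyde-3-phosphate dehydrogenase to pyruvate kinase, and the reduction of pyruvate. At hexokinase, phosphofructokinase, aldolase and triosephosphate isomerase no member was called by edgeR. Calls are by edgeR's quasi-likelihood test at a Benjamini-Hochberg *P*-adj of 0.05 over all genes tested. Of all genes, 0.701% were called higher in this comparison and 0.150% lower. The study had already reported *gpia*, *gapdhs*, *pgk1*, *eno1a*, *eno3*, *pkmb* and *ldha* as raised by heat in TS vs. C from these libraries. The calls on these genes are therefore not independent of that report.

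The log2 fold change (LFC) was above 0 for 30 of the 33 members, against 49.5% of all genes. The members had a median LFC of 0.53, against −0.00 over all genes. An unadjusted *P* under 0.05 was reached by 19 members, all higher, against 5.67% of genes that were higher at this level. In 11 members every heated library lay above every library at 27°C, which held for 1.47% of all genes. These were the 8 called members with *gpib*, *tpi1* copy 2 and *gapdh*. DESeq2 called 14 members higher, and 1.81% of its genes. Its calls included 1 platelet form of phosphofructokinase and 1 brain form of aldolase, at steps without an edgeR call. The 34th member, *aldoc* copy 2, did not pass the filter, with 40 counts in all 12 libraries together.

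**Figure D1:**
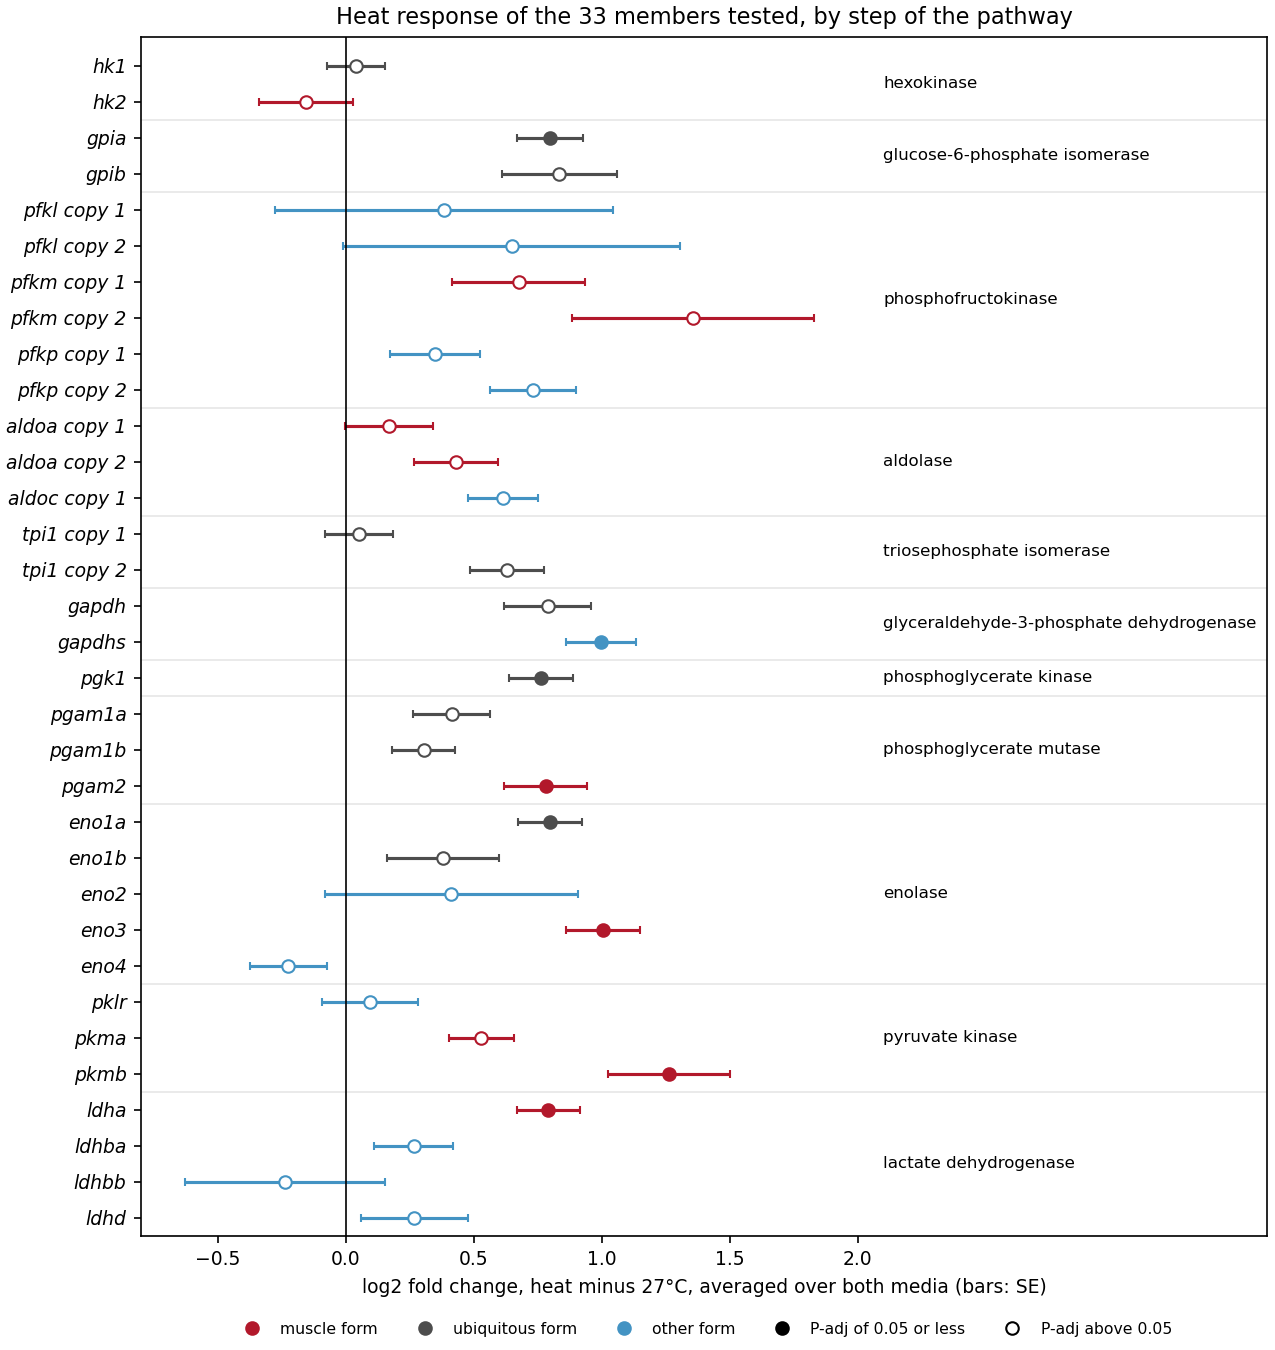
Log2 fold change of heat against 27°C, averaged over both media, for the 33 members tested (points) with its SE (bars), ordered by step from hexokinase to lactate dehydrogenase. Colours give the form of the mammalian counterpart, and filled points are the 8 members with *P*-adj of 0.05 or less. Only *hk2*, *eno4* and *ldhbb* lie left of 0.

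The plot of heat effects by step shows every edgeR call but that of *gpia* at or after glyceraldehyde-3-phosphate dehydrogenase. The widest bars are those of both *pfkl* copies, *pfkm* copy 2 and *eno2*, whose pools of the same treatment differed widely, and of the rare *ldhbb*.

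Hexokinase traps glucose in the cell as glucose-6-phosphate. *hk1*, the form of most tissues, had 3633, 2925 and 2567 normalized counts in TS + SM and 3125, 2962 and 2519 in TS, against 3140.0, 2658 and 3003 in SM and 3131, 2780.0 and 2546 in C. *hk2*, the form of muscle and fat in mammals, ranged from 137 to 214 (median 175) in heated libraries, against 150.0 to 251 (median 183) at 27°C. The groups overlapped for both genes. Summed over the pair, hexokinase counts were 1.02 times as high under heat as at 27°C, the lowest ratio of the 11 steps.

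Glucose-6-phosphate isomerase converts the product of hexokinase to fructose-6-phosphate. *gpia* (ENSDARG00000012987) had 3882, 3165 and 3022 normalized counts in TS + SM and 2799.7, 2691 and 3147 in TS, against 2429, 1456 and 1785 in SM and 1734, 1702 and 1640.3 in C. All 6 heated libraries were above the 6 at 27°C, of which SM replicate 1 was the highest. *gpia* rose by 1.74-fold (LFC 0.80 ± 0.13 (SE), edgeR *P*-adj = 0.0127). The call was lost without C replicate 2 (edgeR *P*-adj = 0.0557). Its paralog *gpib* ranged from 164 to 438 (median 202) in heated libraries, against 104 to 146 (median 139.8) at 27°C. The groups did not overlap for *gpib* either, but TS replicate 3 was far above the other heated libraries and the gene was not called.

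Phosphofructokinase commits the sugar to glycolysis and is the main point of control. None of its 6 genes was called, and all 6 had an LFC above 0. *pfkm* copy 2 (ENSDARG00000060797), of the muscle form, had 309, 475 and 2205 normalized counts in TS + SM and 571, 603 and 711 in TS, against 163, 263 and 613 in SM and 333, 341 and 147 in C. TS + SM replicate 3 stood far above every other library, and SM replicate 3 was as high as TS replicate 2. *pfkm* copy 1 ranged from 73.5 to 193 (median 116) in heated libraries, against 56.7 to 130.1 (median 71.6) at 27°C. *pfkp* copy 2, of the platelet form, had 799, 468 and 739 normalized counts in TS + SM and 565, 639 and 578 in TS, against 348, 362 and 492 in SM and 425, 398 and 258 in C. Only TS + SM replicate 2 fell below the highest SM library. *pfkp* copy 1 ranged from 94.8 to 161 (median 142) in heated libraries, against 80.2 to 143 (median 106) at 27°C. *pfkl* copy 2 (ENSDARG00000099755), of the liver form, had 62.8, 178 and 543 normalized counts in TS + SM and 152, 181 and 1148 in TS, against 137, 233 and 79.4 in SM and 115, 216 and 717 in C. Replicate 3 of TS + SM, TS and C was the highest of its treatment, and SM replicate 3 the lowest. *pfkl* copy 1 was rare, at 1.79 to 35.0 normalized counts in heated libraries, against 4.66 to 21.4 at 27°C, and replicate 3 was again the highest pool of TS + SM, TS and C.

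Aldolase splits fructose-1,6-bisphosphate into the triose phosphates. *aldoa* copy 1 (ENSDARG00000011665), of the muscle form, had 31183, 24175 and 17173 normalized counts in TS + SM and 21421, 22325 and 22265 in TS, against 25933, 17781 and 15493 in SM and 23259, 20549.9 and 20231 in C. The groups overlapped widely, and TS + SM replicate 3 was below all 3 C libraries. *aldoa* copy 2 ranged from 6825 to 14044 (median 9186) in heated libraries, against 5076 to 8977 (median 7332) at 27°C, again with overlap. *aldoc* copy 1, of the brain form, had 6192, 4939.9 and 3721 normalized counts in TS + SM and 4481, 4725 and 4087 in TS, against 3772, 2851 and 2587 in SM and 3009.6, 3096 and 3066 in C. Here only TS + SM replicate 3 and SM replicate 1 overlapped. *aldoc* copy 2 stood at 0 to 8.75 normalized counts over all libraries, where a difference was not detectable at this depth.

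Triosephosphate isomerase interconverts both products of aldolase. *tpi1* copy 2 (ENSDARG00000040988) had 8846, 5988 and 4982 normalized counts in TS + SM and 6334, 6032 and 6122 in TS, against 4762, 3828 and 3673 in SM and 4813, 3869 and 3818 in C. The heated libraries were all higher, with TS + SM replicate 3 close to the highest SM and C libraries, and the gene was not called. *tpi1* copy 1 ranged from 125 to 199 (median 147) in heated libraries, against 129.7 to 161 (median 144) at 27°C, with overlap.

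Glyceraldehyde-3-phosphate dehydrogenase carries out the oxidation of the pathway and makes NADH. *gapdhs* (ENSDARG00000039914), whose mammalian counterpart is the testis form, had 6448, 4746 and 3986 normalized counts in TS + SM and 4166, 4349 and 4236 in TS, against 2904, 2084 and 2197 in SM and 2245, 2011 and 2521 in C. No library at 27°C came near the lowest heated one, and the 3 TS libraries lay close together. *gapdhs* rose by 1.99-fold (LFC 1.00 ± 0.14 (SE), edgeR *P*-adj = 0.00627). *gapdh* (ENSDARG00000043457), the ubiquitous form, had 26190.4, 15598 and 16043 normalized counts in TS + SM and 17044, 15499.6 and 24703 in TS, against 11734, 10539 and 10798 in SM and 12674, 9851 and 11050.1 in C. Its groups did not overlap either, but TS + SM replicate 1 and TS replicate 3 were far above the other heated libraries, and *gapdh* was not called.

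Phosphoglycerate kinase makes the first ATP of the lower pathway. *pgk1* (ENSDARG00000054191) had 5552, 3879 and 3305 normalized counts in TS + SM and 4641, 4381 and 4866 in TS, against 2884, 2666 and 2414 in SM and 2603, 2509.7 and 2596 in C. The heated libraries were all higher, by a small margin in TS + SM replicate 3 and a wide one in TS. *pgk1* rose by 1.70-fold (LFC 0.76 ± 0.13 (SE), edgeR *P*-adj = 0.0144), and without C replicate 2 the call was lost (edgeR *P*-adj = 0.0696).

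Phosphoglycerate mutase moves the phosphate before the next ATP is made. *pgam2* (ENSDARG00000057571), the muscle form, had 1422, 952 and 1325 normalized counts in TS + SM and 1220.3, 1022 and 1794 in TS, against 639, 820.1 and 589 in SM and 942, 726 and 805 in C. All heated libraries were higher, with TS + SM replicate 2 barely above C replicate 1. *pgam2* rose by 1.72-fold and passed narrowly (LFC 0.78 ± 0.16 (SE), edgeR *P*-adj = 0.0497). It passed without TS replicate 2 or TS + SM replicate 2, and the call was lost without any other single library (edgeR *P*-adj from 0.0548 to 0.170). A block on replicate number also ended the call (LFC 0.76, edgeR *P*-adj = 0.0531), although the numbers pair only C with TS and with TS + SM. It was also lost with the unstranded count column (LFC 1.00, edgeR *P*-adj = 0.467), in which *pgam2* had 3919 counts in all libraries, against 13037 in the stranded column. The ubiquitous *pgam1a* ranged from 1461 to 2002 (median 1718) in heated libraries, against 917 to 1745 (median 1291) at 27°C. *pgam1b* ranged from 366 to 504 (median 451) in heated libraries, against 308 to 416 (median 352) at 27°C, and both pairs of ranges overlapped.

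Enolase forms phosphoenolpyruvate and was the step with the most calls. *eno3* (ENSDARG00000039007), the muscle form, had 9101, 5798 and 6529 normalized counts in TS + SM and 5857, 5654 and 8496 in TS, against 3734, 3358 and 3349 in SM and 3632, 3062 and 3532 in C. Even the lowest heated library was well above all libraries at 27°C. *eno3* rose by 2.00-fold (LFC 1.00 ± 0.14 (SE), edgeR *P*-adj = 0.00769). *eno1a* (ENSDARG00000022456), the ubiquitous form, had 7432, 5640.4 and 5448 normalized counts in TS + SM and 5829.6, 5414 and 6282 in TS, against 4237, 3519 and 2779.9 in SM and 3498, 3231 and 3478 in C. The groups did not overlap, and SM replicate 1 was the highest at 27°C. *eno1a* rose by 1.74-fold (LFC 0.80 ± 0.13 (SE), edgeR *P*-adj = 0.0115), and without C replicate 2 the call was lost (edgeR *P*-adj = 0.0567). *eno1b* ranged from 94.5 to 248 (median 123) in heated libraries, against 75.8 to 139 (median 109.9) at 27°C. *eno2*, the neuronal form, ranged from 32.3 to 221 (median 80.3) in heated libraries, against 19.8 to 171 (median 62.2) at 27°C. *eno4*, known from mouse sperm, ranged from 83.6 to 135 (median 116) in heated libraries, against 115 to 144 (median 133) at 27°C, and it was one of the 3 members with an LFC below 0.

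Pyruvate kinase makes pyruvate and the last ATP. *pkmb* (ENSDARG00000099860) had 243, 215 and 274 normalized counts in TS + SM and 265, 244 and 603 in TS, against 76.1, 143 and 126 in SM and 124, 127 and 159 in C. Every heated library was higher, and TS replicate 3 stood at more than any other library. *pkmb* had the largest fold change of the called members, 2.40-fold (LFC 1.26 ± 0.24 (SE), edgeR *P*-adj = 0.0318). The call was lost without C replicate 1, C replicate 2, SM replicate 1, SM replicate 3 or any 1 of the 3 TS + SM replicates (edgeR *P*-adj from 0.0510 to 0.110). *pkma* (ENSDARG00000099730), its paralog, had 1798, 1436 and 1044 normalized counts in TS + SM and 1258, 1284 and 1191 in TS, against 1057, 856 and 1049 in SM and 865, 899 and 824 in C. Among the heated libraries only TS + SM replicate 3 lay below the highest SM library, and *pkma* was not called. Its values depend on the count column, with 14003 counts in all libraries in the stranded column, which was used, against 4100 in the unstranded one, where *pkmb* had 2842 in both. The liver form *pklr* ranged from 193 to 348 (median 287) in heated libraries, against 149 to 336 (median 270.3) at 27°C, with overlap.

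Lactate dehydrogenase connects pyruvate and lactate. *ldha* (ENSDARG00000101251), the muscle form, which in mammals favours lactate formation, had 6793, 5651 and 4503 normalized counts in TS + SM and 5609.8, 5585 and 4663 in TS, against 3696, 3478 and 2902 in SM and 3096, 3114 and 2705 in C. The lowest heated library was above the highest at 27°C. *ldha* rose by 1.73-fold (LFC 0.79 ± 0.12 (SE), edgeR *P*-adj = 0.0108). *ldhba* (ENSDARG00000019644), the heart form, had 17136, 11631 and 8921 normalized counts in TS + SM and 11419, 12033 and 11209 in TS, against 11244, 9774 and 9673 in SM and 11172, 8909 and 9429 in C. TS + SM replicate 3 was above only C replicate 2, replicate 1 of the same treatment was the highest of all, and the gene was not called. *ldhbb* was rare, at 5.59 to 30.9 normalized counts over the 12 libraries, and *ldhd*, which acts on D-lactate, ranged from 72.8 to 118 (median 105) in heated libraries, against 63.4 to 116 (median 76.7) at 27°C.

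**Figure D2:**
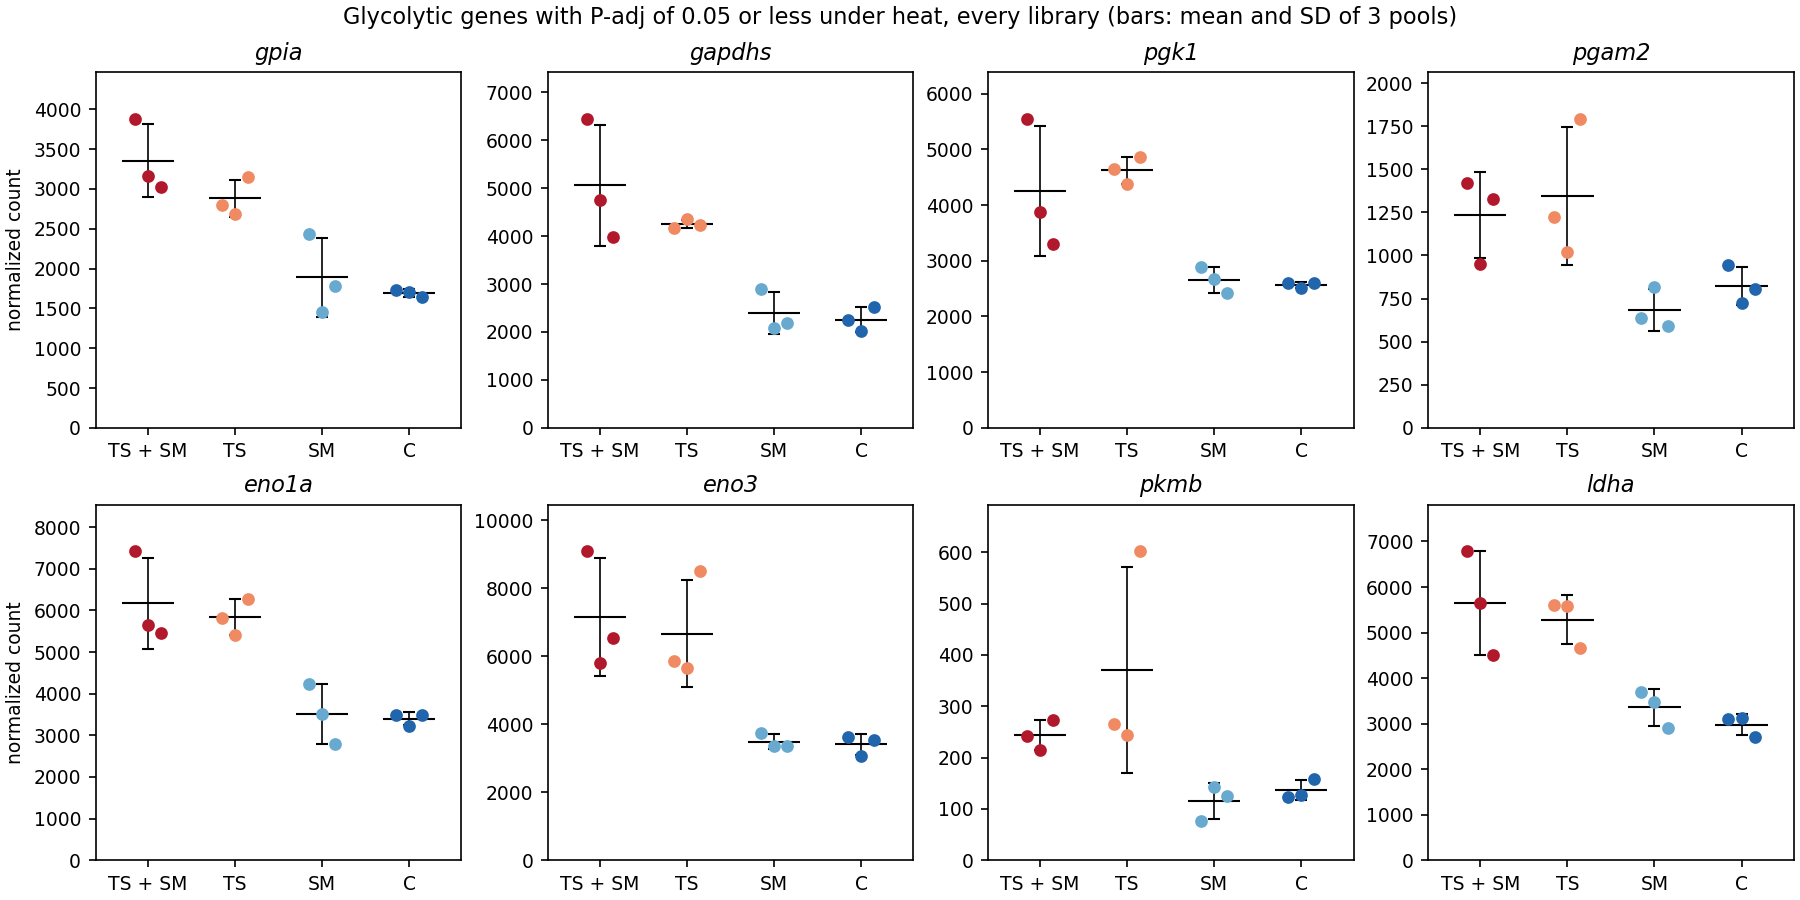
Normalized counts of the 8 members that rose under heat, in every library of TS + SM, TS, SM and C (points), with the mean and SD of the 3 pools (bars); the axes start at 0. In all 8 panels the 6 heated libraries lie above the 6 libraries at 27°C, narrowly for *pgam2*.

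The plot of levels shows that replicate 1 was the highest of the TS + SM pools for *gpia*, *gapdhs*, *pgk1*, *pgam2*, *eno1a*, *eno3* and *ldha*. TS replicate 3 was the highest of the TS pools for *pgam2*, *eno3* and *pkmb* by a wide margin. The order of the TS + SM pools depends on the normalization, whose factor was 0.740 for replicate 1 and 1.14 for replicate 3. As a share of gene counts before normalization, the members took 0.419% in TS + SM replicate 1 and 0.423% in TS + SM replicate 3. The calls on *gapdhs*, *eno3* and *ldha* held when any 1 of the 12 libraries was left out. Without C replicate 2, only these 3 of the members were called, and 72 genes in all, against 159 with every library. Without TS + SM replicate 3, 10 were called, and with any other library left out 6 to 8.

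Muscle and ubiquitous forms were then compared as groups. Of the 10 muscle forms, 4 were called higher (*pgam2*, *eno3*, *pkmb* and *ldha*), 9 had an LFC above 0 and the median LFC was 0.73. Of the 11 ubiquitous forms, 3 were called higher (*gpia*, *pgk1* and *eno1a*), all 11 had an LFC above 0 and the median was 0.63. Of all genes, 0.701% were called higher and 49.5% had an LFC above 0, with a median of −0.00. The other call was *gapdhs*. The 3 liver forms and the pairs of platelet and heart forms held no edgeR call. Counts summed over the muscle forms ran from 42337 to 60761 in TS + SM and 45073 to 54138 in TS, against 29477 to 41659.7 in SM and 36145 to 41532 in C. Under heat they were 1.34 times as high as at 27°C. Counts summed over the ubiquitous forms ran from 37699 to 58696 in TS + SM and 39520.2 to 50522 in TS, against 26094 to 31726 in SM and 26036 to 30419 in C, with a ratio of 1.60. No heated library overlapped with those at 27°C in either sum. The muscle sum is mostly *aldoa*, whose copies were not called. The largest part of the ubiquitous sum is *gapdh*, which was not called either. Its mean was 19179 of 44779 under heat and 11108 of 28012 at 27°C. Both ratios thus rest largely on abundant genes without a call, whereas the median LFC was higher for the muscle forms. The difference between both groups of genes was not tested.

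Step by step, the share of the counts of a step that fell on each form shows whether the mixture shifted. These shares are of counts, not of transcripts, and no test was run on them. At lactate dehydrogenase, *ldha* took 28.3% to 33.3% in the 6 heated libraries (mean 31.2% ± 2.05 SD), against 21.5% to 26.1% in the 6 at 27°C (mean 23.8% ± 1.90 SD). The groups did not overlap, and *ldhba* made up nearly all of the rest. At enolase, *eno3* took 48.8% to 55.8% in the 6 heated libraries (mean 51.7% ± 2.93 SD), against 45.1% to 52.1% in the 6 at 27°C (mean 47.8% ± 2.49 SD). Here the ranges overlapped. The share of *eno4* ran from 0.628% to 1.19% under heat, against 1.55% to 2.23% at 27°C, without overlap.

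At phosphoglycerate mutase, *pgam2* took 28.7% to 45.2% in the 6 heated libraries (mean 37.1% ± 6.08 SD), against 23.0% to 37.1% in the 6 at 27°C (mean 31.6% ± 5.08 SD). At pyruvate kinase, *pkmb* took 10.2% to 28.5% in the 6 heated libraries (mean 16.0% ± 6.64 SD), against 5.60% to 12.4% in the 6 at 27°C (mean 9.71% ± 2.58 SD). Its share in TS replicate 3 was more than that of any other library, and its mean difference of 6.31 percentage points became 11.9 with the unstranded column. *pkma*, the major form by counts of the stranded column, took 56.4% to 75.3% under heat, against 64.4% to 77.8% at 27°C, and its lower count in the unstranded column bears on every share of this step. Among the early steps the muscle forms overlapped throughout. *hk2* took 4.21% to 7.84% of hexokinase counts under heat, against 4.76% to 7.41% at 27°C. *pfkm* copy 2 took 22.0% to 57.0% of phosphofructokinase counts under heat, against 11.5% to 41.9% at 27°C. *aldoa* copy 1 differed the other way, at 55.1% to 67.3% of aldolase counts under heat, against 63.2% to 72.5% at 27°C. Thus only *ldha* among the muscle forms had a share whose groups did not overlap.

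**Figure D3:**
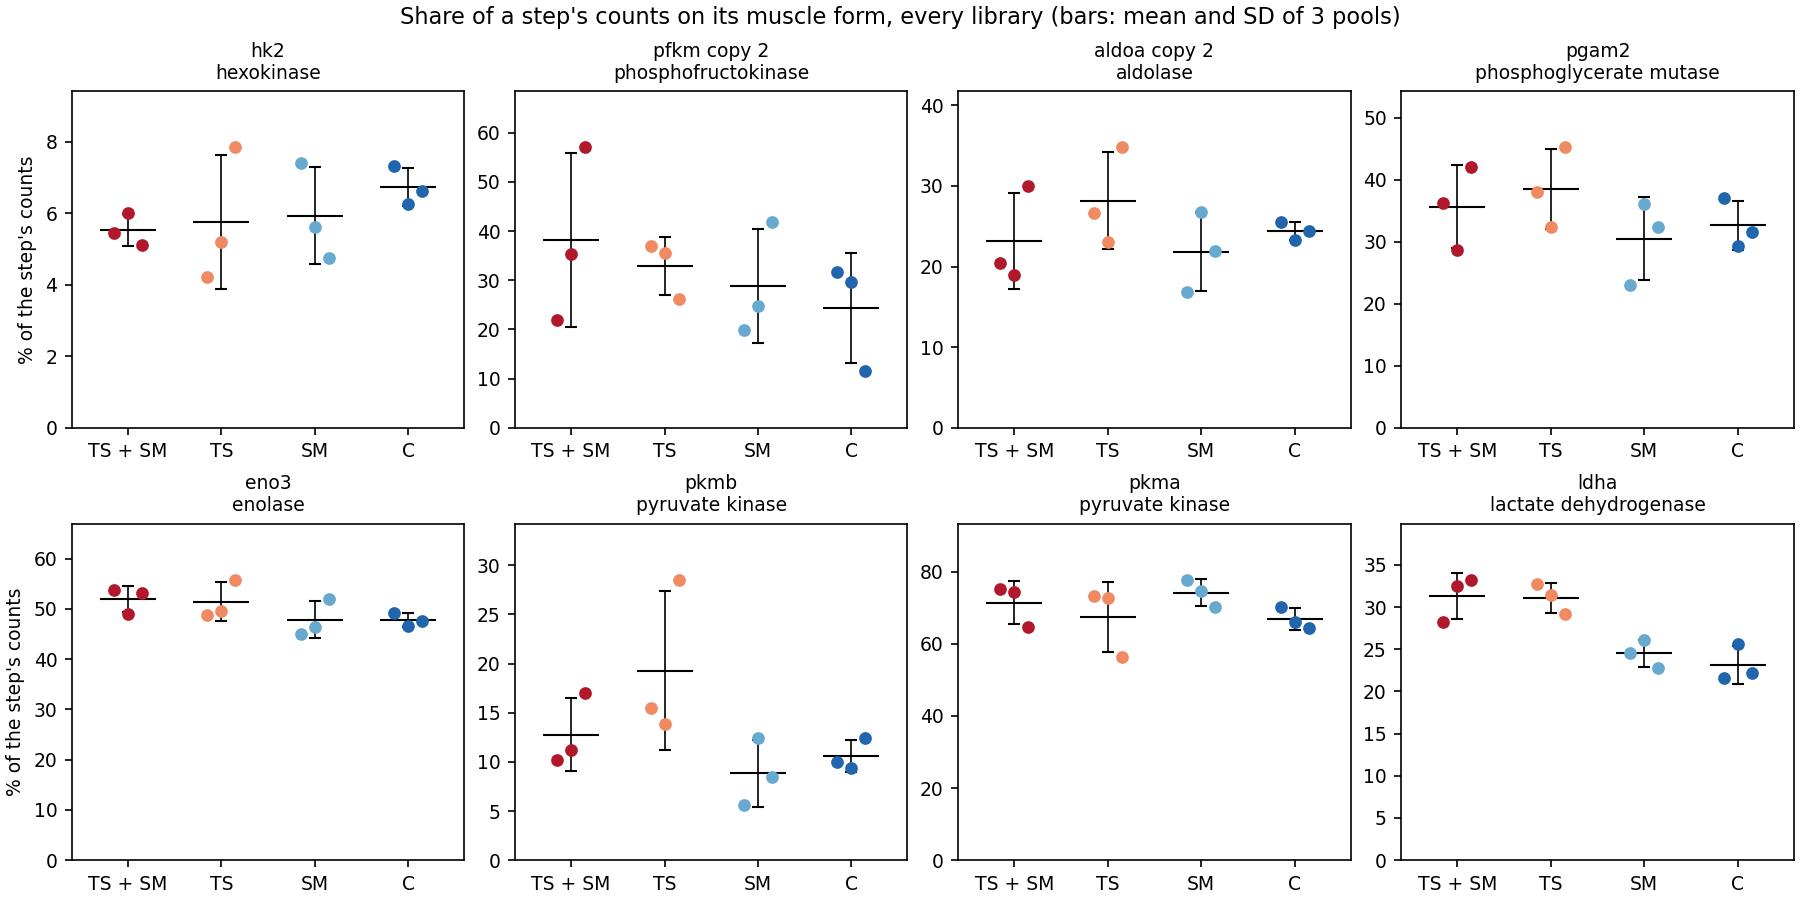
Share of the counts of its step (percent) that fell on each of 8 muscle forms, in every library of TS + SM, TS, SM and C (points), with the mean and SD of the 3 pools (bars). For *ldha* all heated libraries, at 28.3% or more, lie above all libraries at 27°C, at 26.1% or less; in the other panels the groups overlap.

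Summed per step, the mean normalized counts under heat over those at 27°C were 1.84 at phosphofructokinase and 1.84 at enolase. They were 1.77 at glyceraldehyde-3-phosphate dehydrogenase, 1.74 at glucose-6-phosphate isomerase and 1.70 at phosphoglycerate kinase. Lower ratios were found at triosephosphate isomerase (1.53), pyruvate kinase (1.46), phosphoglycerate mutase (1.44), lactate dehydrogenase (1.33) and aldolase (1.22), of which that of pyruvate kinase rests mainly on *pkma* in the stranded column. The phosphofructokinase sum was highest in TS + SM replicate 3 and TS replicate 3, which held 3868 and 2724 normalized counts, whereas the other heated libraries started at 1342. Over all 34 members the sum ran from 98749 to 150855 in TS + SM and 107261 to 126772 in TS, against 71381 to 92381 in SM and 77691 to 89549.8 in C, a ratio of 1.44 without overlap.

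In fresh medium alone (TS vs. C), no member passed *P*-adj 0.05, against 0.0963% of all genes. An unadjusted *P* under 0.05 was reached by 15 of 33 members, all higher, against 3.08% of genes that were higher at this level, and DESeq2 called 7 members, against 0.494% of its genes called higher. In 18 members the 3 TS pools lay above the 3 C pools, which held for 5.81% of all genes. An exact permutation test of 3 against 3 pools cannot give less than *P* = 0.1. The LFC was above 0 in 29 members, against 50.8% of all genes, with a median of 0.51. The members with the smallest *P* were *ldha* (LFC 0.83 ± 0.17 (SE), edgeR *P*-adj = 0.182), *pgk1* (LFC 0.85, *P*-adj = 0.182), *eno3* (LFC 0.97, *P*-adj = 0.182) and *gapdhs* (LFC 0.91, *P*-adj = 0.182). *eno1a* (LFC 0.78, edgeR *P*-adj = 0.239) and *pkmb* (LFC 1.44, edgeR *P*-adj = 0.256) followed. Pools with the same replicate number deviated together in TS and C. With the replicate number as a block, *ldha* was called (edgeR *P*-adj = 0.0392) and no other member, against 0.0803% of all genes called higher.

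In stress medium (TS + SM vs. SM) no member was called, against 0.107% of all genes. Here 16 members reached an unadjusted *P* under 0.05, all higher, against 3.71% of genes that were higher at this level, and DESeq2 called 6, against 0.603% of its genes called higher. The 3 TS + SM pools lay above the 3 SM pools in 11 members (5.67% of all genes) and below them in *eno4* and *ldhbb* (4.64%). The median LFC was 0.53. The smallest *P* values belonged to *gapdhs* (LFC 1.08 ± 0.19 (SE), edgeR *P*-adj = 0.0687), *eno3* (LFC 1.04, *P*-adj = 0.108), *eno1a* (LFC 0.81, *P*-adj = 0.167) and *gpia* (LFC 0.83, *P*-adj = 0.167). *ldha* (LFC 0.75, edgeR *P*-adj = 0.190) and *pgk1* (LFC 0.68, edgeR *P*-adj = 0.309) came next.

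TS vs. C and TS + SM vs. SM share no library, and the members can be set side by side in both. Of the 33, 28 had an LFC above 0 in both media and 2 below 0 in both, *hk2* and *eno4*. *pfkm* copy 1 and *pkmb* were further from 0 in fresh medium, and *pfkm* copy 2 in stress medium. The LFC in fresh medium was the larger for 8 members, and that in stress medium for 25. Over all genes, the LFC in stress medium was the larger for 49.8%. Pearson's *r* between the media was 0.714 across the 33 genes, which share libraries and are not independent replicates.

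**Figure D4:**
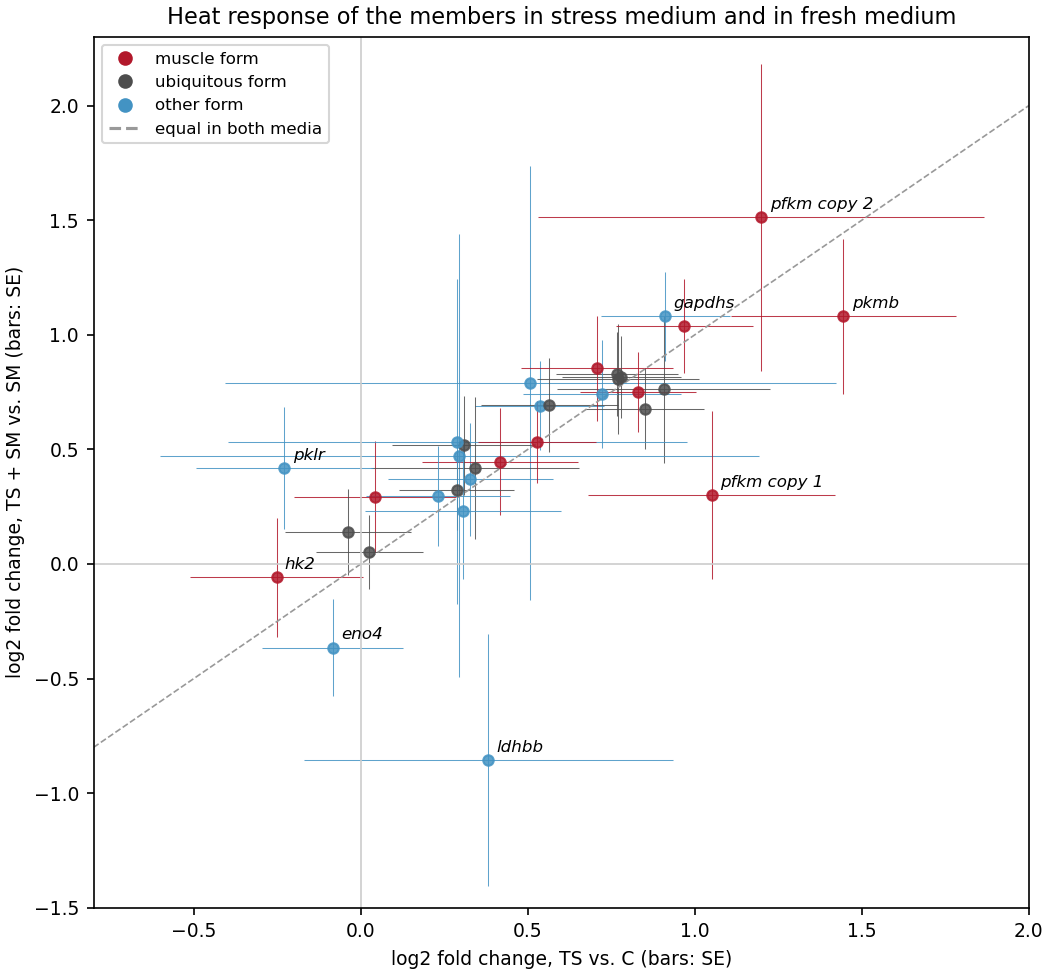
Log2 fold change of heat in stress medium (TS + SM vs. SM, vertical axis) against that in fresh medium (TS vs. C, horizontal axis) for the 33 members tested, with SE bars; the dashed line marks equal values. Most points lie above 0 on both axes and near the line, and *ldhbb* lies furthest below it.

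With heat and stress medium together against the control (TS + SM vs. C), *gapdhs* was the only member called (LFC 1.16 ± 0.19 (SE), edgeR *P*-adj = 0.0389), against 0.139% of all genes called higher. The call was lost without any 1 of the C libraries or without TS + SM replicate 1 or 2 (edgeR *P*-adj from 0.0841 to 0.347), and with only the 6 libraries compared in the fit (0.292). Without TS + SM replicate 3, 3 members were called. Next were *gpia* (LFC 0.99, edgeR *P*-adj = 0.0726), *ldha* (LFC 0.93, *P*-adj = 0.0785), *eno3* (LFC 1.07, *P*-adj = 0.0844), *eno1a* (LFC 0.86, *P*-adj = 0.112) and *pgk1* (LFC 0.72, *P*-adj = 0.219). An unadjusted *P* under 0.05 was reached by 17 members, all higher (4.11% of genes), and DESeq2 called 7 (0.775% of its genes). In these groups, too, pools of the same number deviated together by the rule used here (correlations above 0.1). For replicate 2 this was barely so, at 0.106. With the replicate block, 4 members were called (0.193% of genes called higher): *gapdhs* (edgeR *P*-adj = 0.0248), *gpia* (0.0345), *ldha* (0.0147) and *eno3* (0.0481). This comparison shares its C libraries with TS vs. C.

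Stress medium against fresh medium gave no call among the members, either averaged over both temperatures or at each one. No library came from embryos in medium that had held unheated embryos. Metabolites of heated donors and used medium in general therefore cannot be told apart here. Averaged over both temperatures, 0 of 33 members passed edgeR's *P*-adj of 0.05, and 0% of all genes did. None reached an unadjusted *P* under 0.05, against 3.82% of all genes, and DESeq2 called no member and 1 gene in all. The LFC was above 0 in 21 members, against 49.0% of all genes, and the median was 0.04. The 6 members of smallest *P* were *eno1b* (LFC 0.46 ± 0.22 SE), *aldoa* copy 2 (LFC −0.33 ± 0.16), *pkmb* (LFC −0.43 ± 0.24), *pfkl* copy 2 (LFC −1.08 ± 0.66), *pkma* (LFC 0.20 ± 0.13) and *gpia* (LFC 0.19 ± 0.13), each with an edgeR *P*-adj of 0.802. The levels of *pkma* depended on the count column, and its value fell on the other side of 0 with the unstranded column. SM vs. C and TS + SM vs. TS, taken singly, also held no member with an unadjusted edgeR *P* under 0.05 (2.12% and 1.45% of genes) and no DESeq2 call. In SM vs. C the smallest *P* values were at *ldhbb* (LFC 0.92 ± 0.55), *pfkm* copy 1 (LFC 0.60 ± 0.37), *aldoa* copy 2 (LFC −0.34 ± 0.23), *eno1b* (LFC 0.42 ± 0.31), *pklr* (LFC −0.34 ± 0.27) and *pfkl* copy 2 (LFC −1.22 ± 0.95), each with an edgeR *P*-adj of 0.989. In TS + SM vs. TS they were at *pkmb* (LFC −0.61 ± 0.33), *eno1b* (LFC 0.49 ± 0.31), *tpi1* copy 1 (LFC 0.29 ± 0.19), *aldoa* copy 2 (LFC −0.31 ± 0.23), *gapdhs* (LFC 0.25 ± 0.19) and *gpia* (LFC 0.22 ± 0.18), each with an edgeR *P*-adj of 0.996.

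Whether the heat response differed between the media was tested as the interaction of heat and SM. No member was called, nor were other genes (0%), none had an unadjusted edgeR *P* under 0.05 (0.915% of genes) and DESeq2 called no member and 2 genes in all. The smallest *P* values were at *pklr* (LFC 0.65 ± 0.38 SE), *ldhbb* (LFC −1.24 ± 0.78) and *pfkm* copy 1 (LFC −0.75 ± 0.52), each with an edgeR *P*-adj of 1.00, followed by *eno4* (LFC −0.28 ± 0.30), *pkmb* (LFC −0.36 ± 0.47) and *aldoa* copy 1 (LFC 0.25 ± 0.34). Outside the rule of smallest *P*, values are added for *ldha* and *eno3*, which were called under heat. For *ldha* the interaction was LFC −0.08 ± 0.24, and for *eno3* LFC 0.07 ± 0.29.

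The routes that feed or drain glycolysis were described from lists of other genes. Glycogen stores glucose, and of 22 tested genes of its metabolism 2 rose under heat, against 0.701% of all genes. Of the 22, 19 had an LFC above 0 (median 0.27), against 49.5% of all genes. *pgm1*, phosphoglucomutase, which links glycogen to glycolysis, had 1539, 1208 and 1351 normalized counts in TS + SM and 1142, 1209 and 1957 in TS, against 827, 726 and 793 in SM and 715, 620.4 and 887 in C. It rose in the test (LFC 0.88 ± 0.15 (SE), edgeR *P*-adj = 0.0173), and no heated library overlapped with those at 27°C. *pygm* copy 1, a muscle glycogen phosphorylase that releases glucose units, had 3492, 2867 and 3039 normalized counts in TS + SM and 3152, 2816 and 2614 in TS, against 2055, 2123 and 1701 in SM and 2225, 1964 and 1839.8 in C. It rose as well (LFC 0.59 ± 0.10 (SE), edgeR *P*-adj = 0.0205), again without overlap.

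Of 15 tested transporters of hexoses and lactate, 11 had an LFC above 0 (median 0.13), against 49.5% of all genes. Of the 15, 1 rose, against 0.701% of all genes. This was *slc16a3* copy 2, a monocarboxylate transporter that exports lactate from glycolytic cells in mammals, with 977, 799 and 773 normalized counts in TS + SM and 731, 768 and 861 in TS, against 589.8, 458 and 326 in SM and 540.1, 525 and 440.1 in C. Its groups did not overlap (LFC 0.77 ± 0.14 (SE), edgeR *P*-adj = 0.0256). No gene was called by edgeR in the remaining lists. Of 11 genes of gluconeogenesis 10 had an LFC above 0 (median 0.31), 2 had an unadjusted *P* under 0.05 and DESeq2 called none. The 8 genes of the pentose phosphate pathway had a median of −0.00, with 1 under an unadjusted *P* of 0.05 and 1 called by DESeq2. For 16 regulators of flux, such as the bifunctional fructose-2,6-bisphosphate enzymes, the median was 0.04, with 3 under an unadjusted *P* of 0.05 and 1 DESeq2 call. For 8 genes of pyruvate entry into mitochondria the median was 0.07, with none at an unadjusted *P* under 0.05 and no DESeq2 call. For 10 genes of the glycerol phosphate and malate shuttles it was 0.09, with 1 at an unadjusted *P* under 0.05 and no DESeq2 call. All genes together had a median of −0.00, and 49.5% of them had an LFC above 0. Of all genes, 5.67% were higher at an unadjusted *P* under 0.05, and DESeq2 called 1.81% of its genes higher. The counts of these lists at an unadjusted *P* under 0.05 and by DESeq2 are given without direction, whereas both shares of all genes cover higher genes only. They are therefore not like for like. In either direction DESeq2 called 448 of its 19123 genes.

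Marker genes of several tissues were described in the same libraries. Of 25 listed skeletal muscle markers 18 were matched and tested, and none was at 0 in any library. All 18 had an LFC above 0 (median 0.70), against 49.5% of all genes, and 2 were called, against 0.701% of all genes called higher. They were the calsequestrin gene *casq1a* (LFC 1.44 ± 0.17 (SE), edgeR *P*-adj = 0.00250) and the fast myosin gene *myhz2* (LFC 1.01 ± 0.18 (SE), edgeR *P*-adj = 0.0256). The summed level of the 18 ran from 283538 to 456829 in TS + SM and 340589 to 509362 in TS, against 217035 to 249581 in SM and 256087 to 337445 in C. These sums overlapped between heated libraries and those at 27°C, through C, and their ratio was 1.53, against 1.34 for the muscle forms of glycolysis and 1.60 for the ubiquitous forms. Of the called muscle markers, *casq1a* was matched through the supplement of the paper. *myhz2* had already been reported by the study as raised by heat from these libraries. The count of muscle marker calls is therefore not independent of the study's results. In bulk RNA of whole embryos, more cells of a type and more RNA per cell cannot be told apart.

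A list of genes of the segmentation clock and of somite formation, called segmentation clock genes here, went the other way. Not all of them are parts of the clock itself. The study had already reported *her1*, *her7*, *mespab*, *ripply2* and *tbx6* as lowered by heat from these libraries. Calls on these genes are therefore not independent of that report. Of the 13 tested genes 12 had an LFC below 0 (median −2.08), and 8 were called lower, against 0.150% of all genes. Their summed level ran from 3422 to 5552 in TS + SM and 3333 to 4817 in TS, against 5217 to 6852 in SM and 4890.0 to 5467 in C. A few abundant genes of the list made up most of this sum, so it does not show the change of the rarer ones. In TS replicate 2, 1 of the genes, *mespba*, had 0 counts. Of 8 tested lens markers 4 were called higher (median 1.08), against 0.701% of all genes. Their sums were 4926 to 5867 in TS + SM and 4595 to 6177 in TS, against 2442 to 3256 in SM and 1715 to 3141 in C. The lens markers *cryba2a*, *mipa* and *mipb* were matched through the supplement of the paper. The study had also reported *cryba1b* as raised in TS vs. C. The count of lens calls is therefore not independent of the study's results. Of 12 neural markers 1 was called higher, against the same 0.701%. It was *nefma* (LFC 0.99 ± 0.17 (SE), edgeR *P*-adj = 0.0168). The neural markers had a median of 0.41 and sums of 17479 to 24079 in TS + SM and 16332 to 23222 in TS, against 16789.9 to 19846 in SM and 17947 to 19345 in C. None of the 8 erythroid or 12 epidermal markers was called by edgeR. At an unadjusted *P* under 0.05 were 1 erythroid marker, higher, and 3 epidermal markers, 1 higher and 2 lower. Of all genes, 5.67% were higher at this level. DESeq2 called 1 epidermal marker lower, and among all genes it called 102 lower. The erythroid sums were 23938 to 44469 in TS + SM and 30746 to 74411 in TS, against 20709.8 to 35909 in SM and 22207 to 36400.0 in C, and the mean epidermal sum under heat was 1.03 times that at 27°C. What part the marker genes that changed had in the heat response of the members was not tested. Developmental stage, which heat advanced in the study, was not adjusted for.

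**Figure D5:**
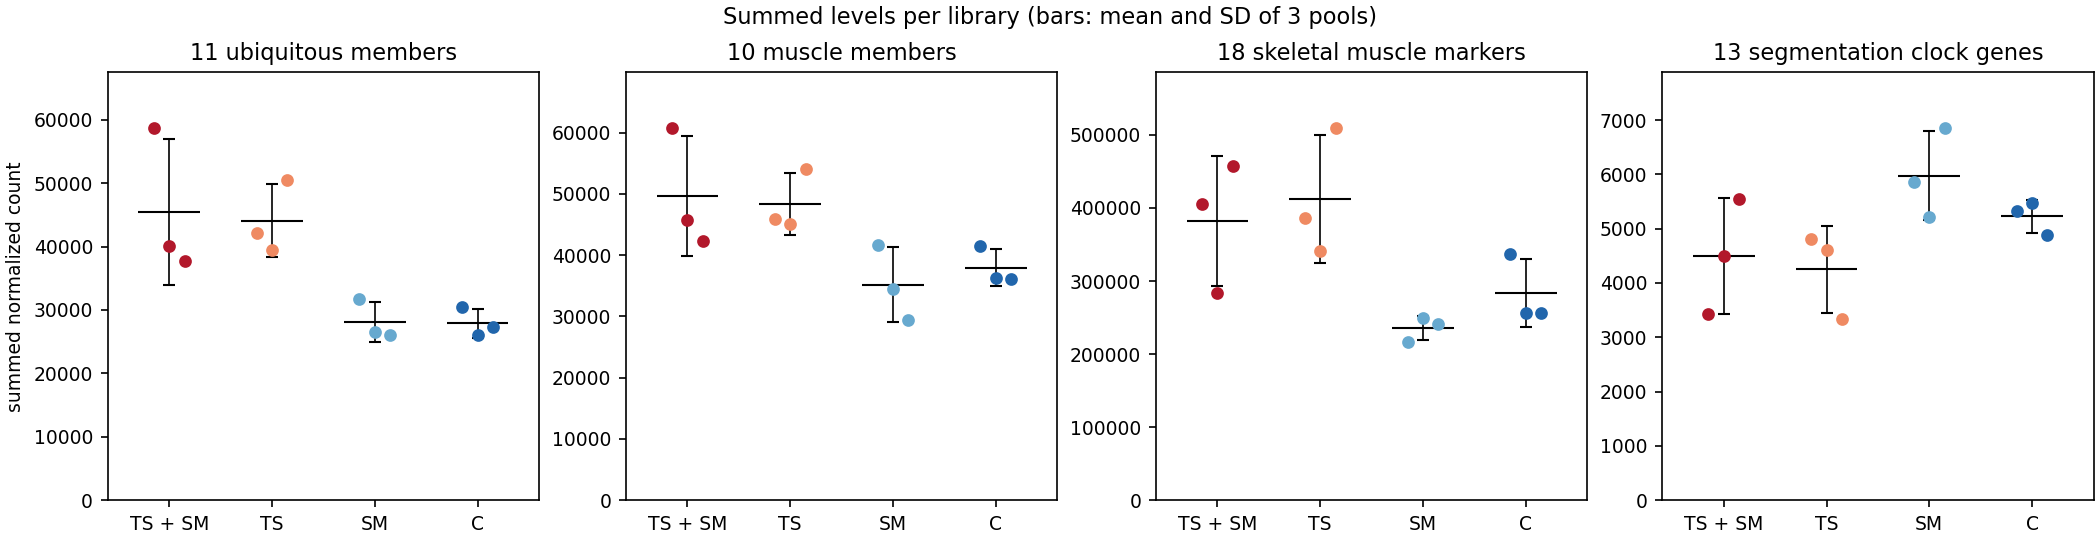
Summed normalized counts of the 11 ubiquitous members, the 10 muscle members, the 18 skeletal muscle markers and the 13 segmentation clock genes, in every library of TS + SM, TS, SM and C (points), with the mean and SD of the 3 pools (bars). Heated libraries lie above those at 27°C for both groups of members, and overlap with them for the sums of the muscle markers and the clock genes. The sum of the clock genes is mostly that of a few abundant genes.

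The plot of summed levels places the members beside these markers. The lowest heated library was above the highest at 27°C for the ubiquitous forms and, narrowly, for the muscle forms (42337 against 41659.7), and below it for the muscle markers (283538 against 337445 in C replicate 1). No test of a difference between these sums was run.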

How the data were processed

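RNA-seq counts of 12 libraries (4 treatments, 3 pools each) were analysed for 34 glycolytic genes. Per the labels and the study's methods, the authors checked reads with FastQC 0.11.9, trimmed them with fastp 0.23.1 and aligned them to GRCz11 with STAR 2.6.1, which counted read pairs per gene. The deposited values are raw counts of the authors, without normalization, and reads mapped to several places (4.51% to 10.4% of reads) are left out, so near-identical paralogs may be undercounted. Column 4, the strand of the kit, was used, and the 4 summary lines were left out of library sizes.

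Of the members, 14 were matched by symbol in the name table, 4 through the supplement of the paper, 4 as the only row left of a symbol and 12 as rows of a family whose letters are not given. Members and lists were chosen with earlier results of these data known. edgeR 4.0.16 in R 4.3.3 (limma 3.58.1, statmod 1.5.0) was run with TMM normalization, filterByExpr and a robust quasi-likelihood fit of all 12 libraries with treatment as the factor. Contrasts were heat averaged over both media, SM averaged over both temperatures, their interaction and the pairwise comparisons, of which those against C share its libraries. *P* values are two-sided and were adjusted by Benjamini-Hochberg over 18688 genes, and SE is |LFC| divided by the square root of *F*. The script was tested on simulated data. Members named with fold change, SE and *P*-adj are those at a *P*-adj of 0.05 or less, filled up to 6 per comparison by the smallest *P*, and other lists are named only at that *P*-adj. A group whose libraries held no more than 3 counts was taken as at the limit of detection. Alternatives were DESeq2 1.42.0, its size factors, no filter, the unstranded column, thinning to the smallest library, a replicate block, only the libraries compared, and leaving out each library.

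Replicate numbers come from the sample labels. They were taken to pair libraries where all 3 correlations of deviations from the group means exceeded 0.1, which held for TS with C (0.294 to 0.786) and TS + SM with C (0.106 to 0.619).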

Additional observations from a re-analysis of the deposited data

How the results depend on the processing

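With 3 pools a treatment, the spread between pools limited the tests, and *aldoc* copy 2 was not tested at its depth. Counts of called members changed with the test. DESeq2 called 14 members for heat averaged over both media, against 8 by edgeR, 7 in TS vs. C and 6 in TS + SM vs. SM, against 0 in each, and 7 in TS + SM vs. C, against 1. Over all genes DESeq2 called 448, 113, 143 and 171 in these 4 comparisons, against 159, 18, 20 and 32 by edgeR. For heat averaged, edgeR with DESeq2's size factors, without the filter or on thinned libraries called 8 members, and with the unstranded column 7; over all genes these called 139 to 159. With only the libraries compared in the fit, 0 members were called in TS + SM vs. C, and over all genes 0 in TS vs. C, 2 in TS + SM vs. SM and 2 in TS + SM vs. C.

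The replicate block called 10 members for heat averaged (202 genes in all, against 159 without it), 1 in TS vs. C, 4 in TS + SM vs. C and 2 in TS + SM vs. SM (*gapdhs*, edgeR *P*-adj = 0.0416, and *ldha*, 0.0423), where the pools share only a number (correlations of 0.0239 to 0.498) and 36 genes were called in all. Under the block *pgam2* missed the threshold for heat averaged (edgeR *P*-adj = 0.0531). It moved no count of calls in the SM comparisons and the interaction.

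Leaving out 1 library gave 3 to 10 called members for heat averaged, 0 to 3 in TS + SM vs. C and 0 in every other comparison, and over all genes 72 to 172 for heat averaged and 5 to 32 in TS + SM vs. C. Of 750 values of named members under alternatives, 696 kept direction and side of the threshold, 28 lost and 24 gained it, and 2 changed sign: *pkma* for SM averaged with the unstranded column (LFC −0.47), and *pkmb* in the interaction without TS replicate 3 (LFC 0.18; −0.58 to 0.18 over the libraries left out). The share of *pkmb* differed by 11.9 percentage points with the unstranded column. The causes were not tested. Shares per kilobase were not run, as no transcript lengths were used here, nor was the fit of only the libraries compared for averaged and interaction effects, which use all 12.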

Other observations

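In a few members the third pool stood apart in several treatments. Over whole libraries, replicate 3 also had the highest normalization factor of C (1.18), TS (1.23) and TS + SM (1.14), but not of SM. *eno2*, the neuronal enolase, had 32.3, 91.6 and 115 normalized counts in TS + SM and 68.2, 69.1 and 221 in TS, against 45.6, 78.8 and 171 in C. Replicate 3 was the highest pool of these treatments, and with 19.8 the lowest of SM. *pfkl* copy 2 had the same order of pools. With the replicate number as a block, its LFC for heat averaged over both media was 0.20, against 0.65 without it, and it was called in neither fit (edgeR *P*-adj = 0.938 and 0.936). TS replicate 3 also held the highest *gpib*, *aldoa* copy 2, *pgam2* and *pkmb* counts of all libraries.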
